A study of Mus musculus with 12 samples.

Results

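The genes described here encode the enzymes that turn arachidonic acid into prostanoids, leukotrienes and lipoxygenase products. They are 10 genes fixed by symbol, Ptgs1, Ptgs2, Ptgds, Hpgds, Ptges, Ptgis, Alox5, Alox5ap, Ltc4s and Alox15, and all 10 were found among the 25070 rows of the deposited table. RNA was sequenced from mouse skin in 12 libraries, and levels are in CPM, a gene's reads scaled to a library of 1 M reads. The groups were unbitten skin of naive mice (2 libraries), and bitten skin from a first exposure (3 libraries), from mice labelled ticks 2x or ticks 3x (3 libraries each) and from skin labelled saliva immune (1 library). Biopsies were taken 4 days after tick attachment. The labels give the same 4 days for the unbitten naive skin and do not say what they count from there. The labels do not give the strain, sex and age of the mice, the tick species, how saliva immunity was raised, or if animals were pooled or shared between libraries, so p-values measure the spread between libraries, which may be technical.

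Cyclooxygenases, encoded by Ptgs1 and Ptgs2, convert arachidonic acid into prostaglandin H2, which terminal synthases turn into prostaglandin D2 (Ptgds, Hpgds), prostaglandin E2 (Ptges) or prostacyclin (Ptgis). In the leukotriene branch Alox5 works with its helper protein Alox5ap, and Ltc4s joins glutathione to the product to give the cysteinyl leukotrienes. Alox15 encodes a lipoxygenase found in eosinophils and some macrophages. In skin these mediators act on blood vessels, sensory nerves and recruited leukocytes, and mast cells are a classical source of prostaglandin D2 and leukotriene C4.

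Keratinocyte genes were high in every library, with a basal keratinocyte list mean between 8.45 and 9.78 on the log2(CPM + 1) scale. Depth, estimated from the smallest steps of the CPM values, was 12.5 to 29.8 M reads, and the lowest member value rested on about 21 reads. Libraries of the same group differed in tissue. The mean of a hair follicle list (21 of 22 genes found) ran from 0.71 to 9.58 on the same scale and was highest in first exposure replicates 1 and 2 (9.29 and 9.58) and ticks 2x replicate 1 (9.11). The remaining libraries were not alike. The mean was 7.68 and 0.94 in the naive libraries and 5.19, 6.84 and 0.79 in ticks 3x, so every comparison with naive skin uses a split pair. The skeletal muscle list (9 of 9 genes found) differed as well, with a summed level of 2450 to 43400 CPM. It was lowest in ticks 2x replicate 1 and highest in ticks 3x replicate 3, and its part was not tested. By the sample titles the first exposure and saliva immune libraries form 1 numbered series and the other 8 libraries another, so a comparison with first exposure cannot be told apart from title series. In bulk tissue fewer cells of a type and less RNA per cell cannot be told apart either.

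None of the 10 genes passed the test in any of the 5 comparisons made (limma on log2(CPM + 1), Benjamini-Hochberg adjusted p below 0.05 over 17064 genes), which called 0 to 0.82% of all genes. What separated libraries were 3 patterns across genes. Ptgds was high where hair follicle genes were high, and Ptgs1, Hpgds, Ptges and Alox5 were low there. Ptgs2 was low in the first exposure and saliva immune libraries, with ticks 3x replicate 3 among them in level. Alox15, Ltc4s, Ptgis and Alox5 were at their highest in the single saliva immune library.

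**Figure D1:**
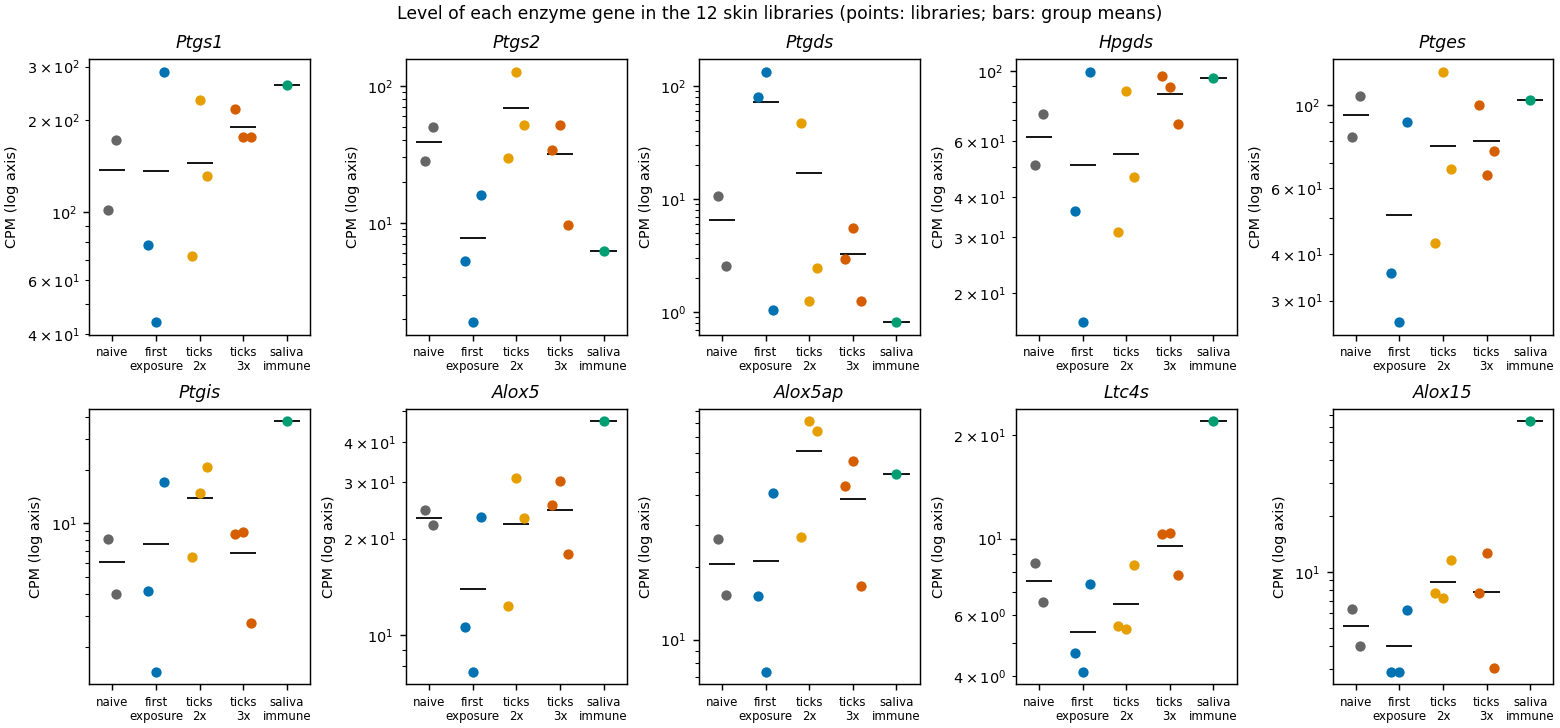
CPM of each of the 10 genes (log axis) in 12 libraries, by group; points are libraries and bars are group means, which for saliva immune is its 1 library. First exposure replicate 2 was the lowest library for 8 genes and shared the lowest value of Alox15 (2.9 CPM) with replicate 1, and saliva immune was the highest for 4 genes.

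Per length of exon, which allows levels of different genes to be compared, Ptgs1 was the highest of the enzymes with a median of 45 CPM per kb over the 12 libraries. Alox5ap (23.9), Ptges (20), Hpgds (11), Ltc4s (7.51), Ptgs2 (6.34), Alox5 (5.67), Ptgis (3.28), Alox15 (2.75) and Ptgds (1.68) followed on the same CPM per kb scale. Neighbours in this order overlapped in their range over the libraries. The order was not fixed: Ptgds reached 82 CPM per kb in its highest library, above the highest of Ptgs1 (74.4).

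Ptgs1, the constitutive cyclooxygenase (chromosome 2, 36216742 to 36258593, GRCm38.p6), was at 102 and 173 CPM in naive skin. It was at 78.3, 43.7 and 289 CPM after first exposure, 71.8, 233 and 131 CPM in ticks 2x, 218, 177 and 177 CPM in ticks 3x, and 262 CPM in the saliva immune library. The first exposure libraries thus held both the lowest and the highest value of all 12. The 3 libraries of ticks 3x lay close together and above both naive ones, by a narrow margin at the nearest (177 against 173 CPM). The log2 fold change in ticks 3x against naive skin was 0.51 (limma, SE 0.71, adjusted p = 0.93).

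Ptgs2, the inducible cyclooxygenase (chromosome 1, 150100031 to 150108234), was at 28.5 and 49.7 CPM in naive skin. After first exposure it was at 5.31, 1.89 and 15.9 CPM, below both naive libraries in each case. In ticks 2x it was at 29.5, 127 and 51.8 CPM and in ticks 3x at 34.1, 51.7 and 9.66 CPM, so that 1 repeat library, ticks 3x replicate 3, overlapped first exposure. Saliva immune skin, in the same title series as first exposure, had 6.28 CPM. Group means were 39.1 ± 14.9 CPM (SD, n = 2) in naive skin, 7.69 ± 7.29 CPM (SD, n = 3) after first exposure, 69.5 ± 51.1 CPM (SD, n = 3) in ticks 2x and 31.8 ± 21.1 CPM (SD, n = 3) in ticks 3x.

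The log2 fold change of Ptgs2 was -2.52 in first exposure against naive skin (SE 0.88, limma adjusted p = 0.213) and 2.56 in repeat exposure, meaning ticks 2x and 3x pooled (n = 6), against first exposure (SE 0.71, limma adjusted p = 0.11). Both use the same first exposure libraries. These were the widest differences among the 10 genes in those comparisons, with an unadjusted p of 0.0185 and 0.00463. Once hair follicle content entered the fit, the estimates were -2.28 (adjusted p = 0.231) and 2.32 (adjusted p = 0.172). Immediate early genes, induced by acute stimulation as Ptgs2 is, had a summed level (13 of 13 genes found) of 7580 and 17000 CPM in the naive libraries, 856 to 5180 CPM in first exposure, 4720 to 10000 CPM in ticks 2x, 4750 to 8010 CPM in ticks 3x and 1580 CPM in saliva immune. The sums of first exposure lay below both naive sums, while that of first exposure replicate 3 (5180 CPM) lay above those of ticks 2x replicate 3 (4720 CPM) and ticks 3x replicate 3 (4750 CPM). Their part in the result was not tested.

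Set against each other within a library, Ptgs2 was 0.281 and 0.287 of the Ptgs1 level in naive skin. The ratio of CPM was 0.0679, 0.0433 and 0.055 after first exposure, although Ptgs1 itself varied 6.6-fold between those libraries. It was 0.411, 0.544 and 0.395 in ticks 2x, 0.157, 0.293 and 0.0544 in ticks 3x, and 0.024 in saliva immune. The ticks 2x ratios all lay above the naive ones and the first exposure ratios all below, and ticks 3x replicate 3 lay inside the first exposure range. This ratio was chosen after its values were seen and was given no test.

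**Figure D2:**
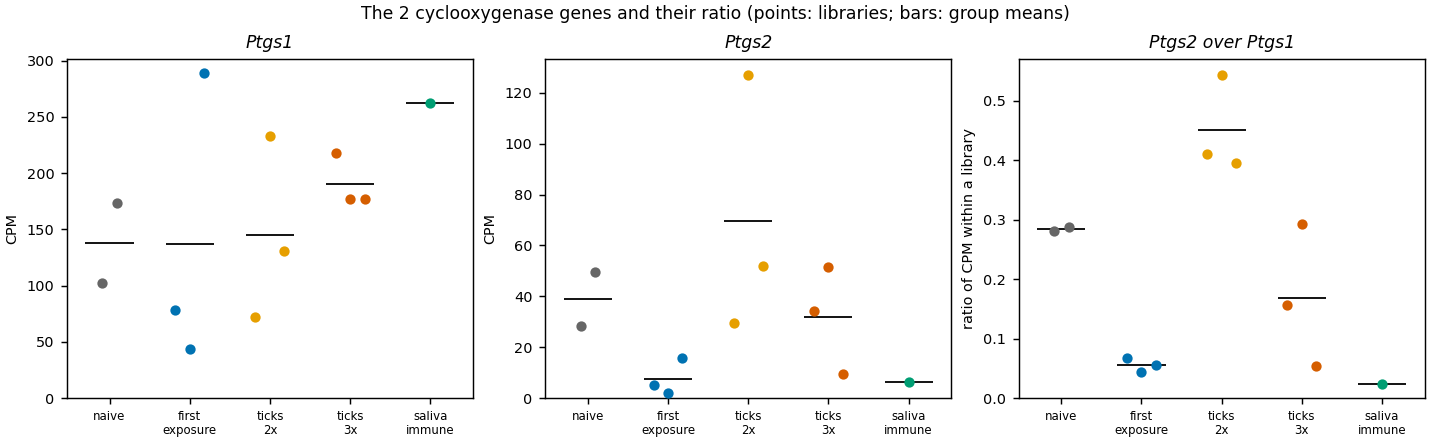
CPM of Ptgs1 and Ptgs2 and the ratio of Ptgs2 to Ptgs1 within each library (linear axes from 0), by group; points are libraries and bars are group means. First exposure ratios lie between 0.0433 and 0.0679, the naive ratios at 0.281 and 0.287 and the ticks 2x ratios between 0.395 and 0.544.

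The 250 bases before the start of both genes are shown because the pair shares a reaction and differed in pattern. Sequences are from RefSeq (GRCm38.p6), whose table held a promoter for 7 of the 10 genes, all but Ptgis, Alox5ap and Alox15. Capitals mark matches, on either strand, to a TATA box (TATAAA), a GC box (GGGCGG), a CRE half-site (TGACG), an AP-1 site (TGANTCA) and an NF-kB-like site (GGGNNNNNCC). The Ptgs1 stretch is chr2:36230176-36230425 and the Ptgs2 stretch chr1:150099781-150100030, both on the plus strand, and the Ptgs1 start used lies within the gene's span above.
Ptgs1: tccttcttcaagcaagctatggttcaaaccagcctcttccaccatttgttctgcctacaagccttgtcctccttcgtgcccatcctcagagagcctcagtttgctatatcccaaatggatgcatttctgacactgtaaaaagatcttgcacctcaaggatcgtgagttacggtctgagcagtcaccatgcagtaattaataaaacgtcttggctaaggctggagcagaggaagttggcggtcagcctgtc
Ptgs2: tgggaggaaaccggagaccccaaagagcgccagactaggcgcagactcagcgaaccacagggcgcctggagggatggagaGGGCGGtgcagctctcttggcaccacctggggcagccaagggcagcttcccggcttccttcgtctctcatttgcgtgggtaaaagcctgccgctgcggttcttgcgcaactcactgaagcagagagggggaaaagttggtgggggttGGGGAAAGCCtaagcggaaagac
The Ptgs2 stretch held 1 GC box at -170 to -165 and 1 NF-kB-like site at -23 to -14 from the start, not overlapping, and its GC content was 61.6%. The Ptgs1 stretch held no match to any of the 5 and had a GC content of 48%. Of 32817 promoter stretches of this length, 32.7% held a GC box, 45.8% an NF-kB-like site, 12.4% a TATA box, 17.7% a CRE half-site and 6.75% an AP-1 site. Matches describe the letters only.

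Prostaglandin D2 is made by a pair of unrelated synthases, and their genes ran in opposite directions. Ptgds, the lipocalin-type enzyme (chromosome 2, 25466709 to 25470110), was at 10.6 and 2.56 CPM in naive libraries, 80.1, 135 and 1.04 CPM in first exposure, 47.4, 1.27 and 2.48 CPM in ticks 2x, 2.97, 5.61 and 1.25 CPM in ticks 3x, and 0.819 CPM in saliva immune. It spanned 165-fold, the widest range of the 10 genes. The 3 libraries richest in hair follicle RNA held the 3 highest values, 47.4 to 135 CPM, against 0.819 to 10.6 CPM in the other 9. Of all genes with at least 1 CPM in 2 of the 12 libraries, 14.6% lay in this way above the other 9 libraries and 6.92% below them. The melanocyte list (7 of 7 genes found) was high in the same libraries, with a summed level of 715 to 2200 CPM in those 3 and 9.03 to 184 CPM in the others, and its part was not tested.

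Hpgds, the haematopoietic enzyme of mast cells and other leukocytes (chromosome 6, 65117293 to 65144981), was at 50.6 and 73.3 CPM in naive libraries, 36.2, 16.2 and 99.6 CPM in first exposure, 31.2, 86.5 and 46.5 CPM in ticks 2x, 96.6, 88.9 and 68.1 CPM in ticks 3x, and 95.4 CPM in saliva immune. Here the 3 hair-rich libraries were the 3 lowest, at 16.2 to 36.2 CPM against 46.5 to 99.6 CPM in the other 9. Hpgds followed Ptgs1 closely, at 0.345 to 0.504 of its CPM in every library. The mast cell list did not share this order, and its part in the Hpgds values was not tested. Its summed level (10 of 10 genes found) was 226 to 279 CPM in naive libraries, 146 to 481 CPM in first exposure, 559 to 677 CPM in ticks 2x, 292 to 830 CPM in ticks 3x and 356 CPM in saliva immune, and it was 639 CPM in ticks 2x replicate 1, where Hpgds was at 31.2 CPM.

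For Ptgds the log2 fold change was 2.13 in first exposure against naive skin (SE 1.80, limma adjusted p = 0.57) and -2.41 in repeat against first exposure (SE 1.34, limma adjusted p = 0.313). With the hair follicle covariate these were 0.89 and -1.12. For Hpgds they were -0.63 (SE 0.65, limma adjusted p = 0.644) and 0.72 (SE 0.51, limma adjusted p = 0.413), and -0.32 and 0.40 with the covariate. The estimates lay nearer to 0 with hair follicle content in the fit, but most first exposure libraries were hair-rich. The covariate and the group therefore overlap, and the cause was not tested.

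**Figure D3:**
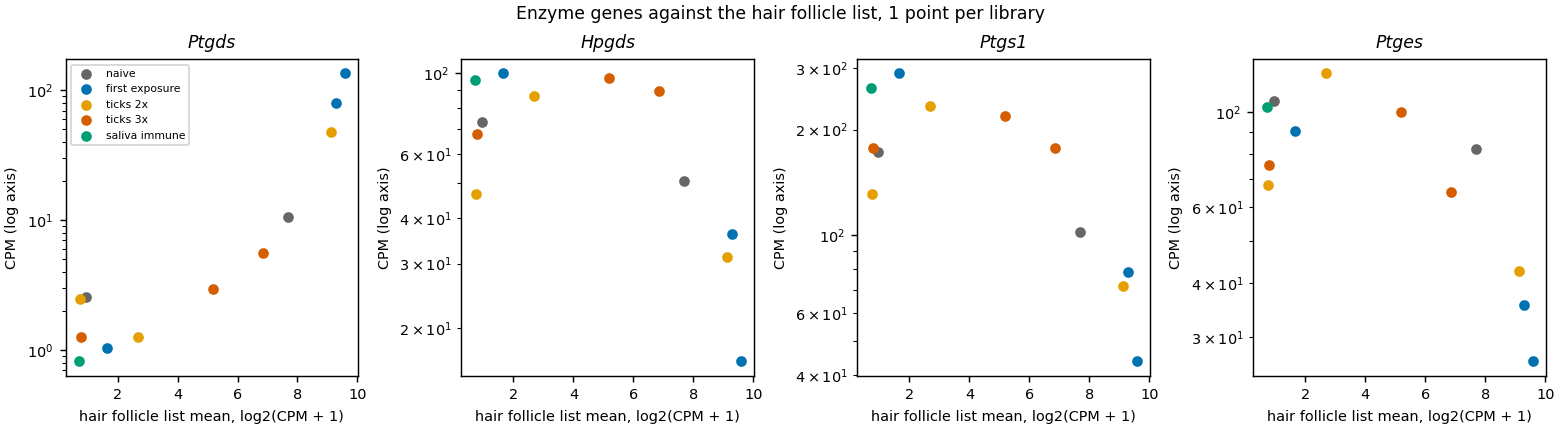
CPM of Ptgds, Hpgds, Ptgs1 and Ptges (log axes) against the mean log2(CPM + 1) of the hair follicle list, 1 point per library, coloured by group. The 3 libraries at 9.11 to 9.58 have the 3 highest values of Ptgds and the 3 lowest of the other genes.

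The promoter stretches of both prostaglandin D2 synthase genes follow, as the pair with opposite patterns, with matches in capitals as above. They are chr2:25469750-25469999 for Ptgds and chr6:65144731-65144980 for Hpgds, both on the minus strand, and both lie within the gene spans above, as the starts used are internal to them.
Ptgds: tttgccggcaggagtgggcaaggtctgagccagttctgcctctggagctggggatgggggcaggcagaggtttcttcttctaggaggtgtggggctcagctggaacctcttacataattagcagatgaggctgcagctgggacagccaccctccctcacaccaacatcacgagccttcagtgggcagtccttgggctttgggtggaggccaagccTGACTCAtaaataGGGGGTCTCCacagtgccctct
Hpgds: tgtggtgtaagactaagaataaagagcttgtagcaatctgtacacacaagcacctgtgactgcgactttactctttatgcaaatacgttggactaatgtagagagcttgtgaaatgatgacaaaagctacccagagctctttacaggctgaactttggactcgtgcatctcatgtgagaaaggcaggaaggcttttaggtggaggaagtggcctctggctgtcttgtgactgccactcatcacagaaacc
Ptgds had 1 AP-1 site at -35 to -29 and 1 NF-kB-like site at -22 to -13, not overlapping. Hpgds had no match to the 5 motifs.

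Ptges, the inducible microsomal prostaglandin E synthase (chromosome 2, 30889471 to 30931020), was at 82 and 106 CPM in naive libraries, 35.5, 26.3 and 90.4 CPM in first exposure, 42.7, 123 and 67.5 CPM in ticks 2x, 100, 65.1 and 75.5 CPM in ticks 3x, and 103 CPM in saliva immune. The lowest 3 values were again those of the hair-rich libraries, 26.3 to 42.7 CPM. Ptges was at 94 ± 17 CPM in naive skin (SD, n = 2) and 50.7 ± 34.7 CPM after first exposure (SD, n = 3), with a log2 fold change of -1.07 (SE 0.53, limma adjusted p = 0.347), and the groups overlapped.

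Ptgis, the prostacyclin synthase of vessel walls and fibroblasts (chromosome 2, 167203194 to 167252150), was at 8.13 and 3.99 CPM in naive libraries, 4.12, 1.45 and 17.2 CPM in first exposure, 6.44, 14.8 and 20.7 CPM in ticks 2x, 8.71, 8.93 and 2.74 CPM in ticks 3x, and 37.8 CPM in saliva immune. All groups with more than 1 library overlapped. The ticks 2x against naive estimate was 1.02 on the log2 scale (SE 0.82, limma adjusted p = 0.679). Endothelial genes, which mark vessels (8 of 8 found), had a summed level of 339 and 418 CPM in naive libraries, 127 to 279 CPM in first exposure, 157 to 514 CPM in ticks 2x, 298 to 520 CPM in ticks 3x and 281 CPM in saliva immune. Fibroblast genes (8 of 8 found) summed to 13100 CPM in saliva immune and to 4880 to 16600 CPM in the other libraries. The part of either in the Ptgis values was not tested.

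Alox5, the enzyme that starts leukotriene synthesis (chromosome 6, 116410071 to 116461178), was at 24.5 and 22 CPM in naive libraries, 10.6, 7.69 and 23.4 CPM in first exposure, 12.3, 31 and 23.2 CPM in ticks 2x, 25.5, 30.3 and 17.9 CPM in ticks 3x, and 46.5 CPM in saliva immune. Among the first exposure and ticks 2x libraries the 3 hair-rich ones were the lowest of all 12, and the other 3 lay at 23.2 to 31 CPM, beside the naive values. The log2 fold change in repeat against first exposure was 0.79 (SE 0.35, limma adjusted p = 0.232) and -0.85 in first exposure against naive skin (SE 0.47, limma adjusted p = 0.39).

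Alox5ap, which presents arachidonic acid to Alox5 (chromosome 5, 149265004 to 149288153), was at 26.2 and 15.3 CPM in naive libraries, 15.2, 7.35 and 41 CPM in first exposure, 26.9, 81.6 and 74.5 CPM in ticks 2x, 43.9, 55.4 and 16.7 CPM in ticks 3x, and 49.3 CPM in saliva immune. Every ticks 2x library lay above both naive ones, and the margin was narrow in ticks 2x replicate 1. The mean was 61 ± 29.7 CPM in ticks 2x (SD, n = 3) against 20.8 ± 7.7 CPM in naive skin (SD, n = 2), a log2 fold change of 1.41 (SE 0.75, limma adjusted p = 0.522). In ticks 3x it was 0.75 (SE 0.75, limma adjusted p = 0.894), and the same naive libraries serve both. Macrophage genes (11 of 11 found) summed to 1080 and 1820 CPM in naive libraries, 640 to 2110 CPM in first exposure, 1910 to 4070 CPM in ticks 2x, 1310 to 3940 CPM in ticks 3x and 3220 CPM in saliva immune, and neutrophil genes (9 of 9 found) to 108 and 157, 42.8 to 110, 77.8 to 663, 93.8 to 348 and 197 CPM. In ticks 2x replicate 1 the neutrophil sum, 77.8 CPM, was below both naive libraries and the macrophage sum, 1910 CPM, just above them. Their part in the Alox5ap values was not tested.

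Ltc4s, the leukotriene C4 synthase (chromosome 11, 50236461 to 50238532), spanned 5.32-fold over the 12 libraries, and only Ptges (4.67-fold) spanned less among the 10 genes. It was at 8.5 and 6.55 CPM in naive libraries, 4.65, 4.12 and 7.38 CPM in first exposure, 5.6, 5.49 and 8.38 CPM in ticks 2x, 10.3, 10.4 and 7.87 CPM in ticks 3x, and 21.9 CPM in saliva immune. The saliva immune library was the highest, and the other groups lay within 4.12 to 10.4 CPM, the lowest in first exposure and the highest in ticks 3x. Means were 9.52 ± 1.43 CPM in ticks 3x (SD, n = 3) and 6.49 ± 1.64 CPM in ticks 2x (SD, n = 3), a log2 fold change of 0.50 (SE 0.24, limma adjusted p = 0.894), and these groups overlapped.

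Alox15 (chromosome 11, 70344147 to 70390538) was at 6.28 and 3.99 CPM in naive libraries, 2.9, 2.9 and 6.21 CPM in first exposure, 7.72, 7.18 and 11.6 CPM in ticks 2x, 7.64, 12.6 and 3.04 CPM in ticks 3x, and 64.6 CPM in saliva immune. All 3 ticks 2x libraries lay above both naive ones (log2 fold change 0.68, SE 0.49, limma adjusted p = 0.643). In repeat against first exposure the estimate was 0.86 (SE 0.37, limma adjusted p = 0.227), with overlap of the groups in ticks 3x replicate 3.

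The saliva immune library cannot be tested, being 1 library. In it Alox15 was 5.12 times as high as in the next library and 10.3 times the median of the other 11. By the first of these ratios it ranked 3 of 17174 genes with at least 1 CPM in 2 of the 12 libraries. Ltc4s (2.11 times the next library), Ptgis (1.82 times) and Alox5 (1.5 times) were also at their highest there. Of those 17174 genes, 6.6% were highest in the saliva immune library, against 4 of the 10 enzyme genes. Against naive skin alone, 7 of the 10 lay above both libraries, as did 44.6% of the 17174 genes. At the other end Ptgds, at 0.819 CPM, was the lowest of the 12, and 3.29% of genes were lowest there.

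Eosinophil genes (6 of 9 found) were high in the same library. Their summed level was 63.4 CPM in saliva immune, against 7.35 and 18 CPM in naive libraries, 2.79 to 18.8 CPM in first exposure, 13.1 to 21 CPM in ticks 2x and 13.4 to 21.5 CPM in ticks 3x. Ccr3, the eotaxin receptor, was at 17.7 CPM there and at most 5.98 CPM elsewhere, and Siglecf, an eosinophil lectin receptor, at 11.5 CPM and at most 2.62 CPM. Ear2, the largest part of the sum, was at 29.2 CPM there and at most 15.2 CPM elsewhere, and Il5ra at 3.41 CPM and at most 1.41 CPM. Ear6 went the other way, at 0.507 CPM in saliva immune against 1 CPM in ticks 2x replicate 2. The granule gene Prg2 was at 1.17 CPM in saliva immune and at most 0.373 CPM elsewhere. It was at 0.0001 CPM, the value added to every entry, in naive replicate 2, all 3 first exposure libraries, ticks 2x replicate 1 and ticks 3x replicate 3. Of the macrophage list, Retnla was also highest in saliva immune, at 828 CPM against at most 308 CPM elsewhere. No other gene of that list was, and its sum, 3220 CPM, lay below the highest of ticks 2x (4070 CPM). Whether eosinophils or macrophages carry the Alox15 and Ltc4s reads was not tested.

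**Figure D4:**
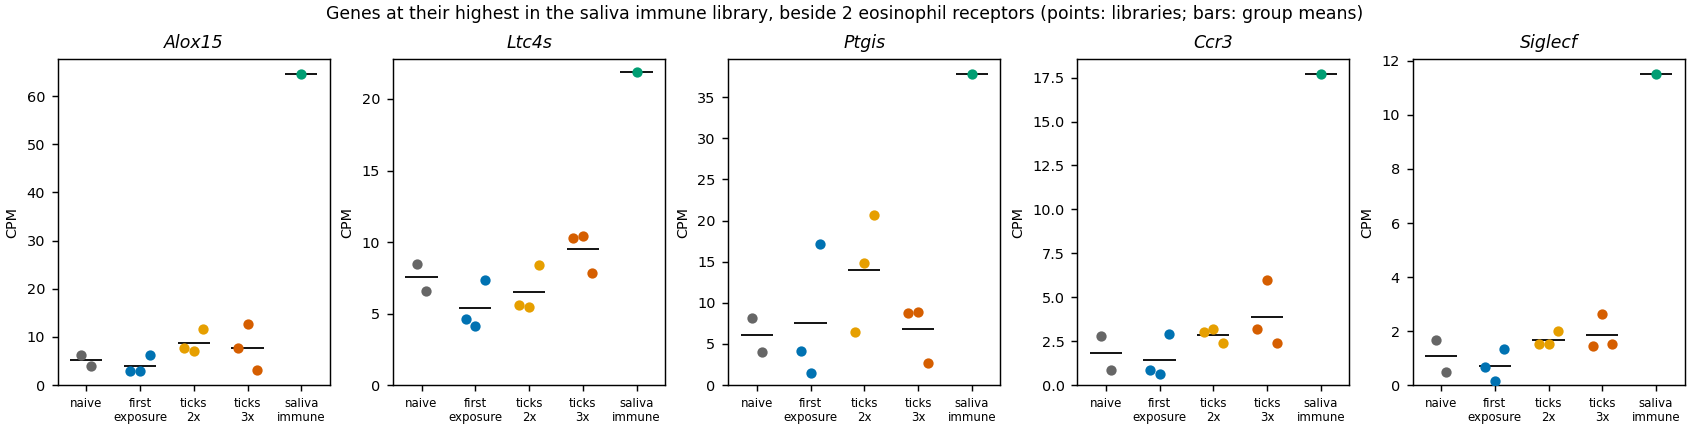
CPM of Alox15, Ltc4s and Ptgis and of the eosinophil genes Ccr3 and Siglecf (linear axes from 0) in 12 libraries, by group; points are libraries and bars are group means. The single saliva immune library is the highest for all 5 genes, at 64.6 CPM for Alox15 and 17.7 CPM for Ccr3.

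Comparison by comparison, the 10 genes were read against all genes tested. In first exposure against naive skin limma called 0.0117% of genes and none of the 10, of which 9 lay lower, with a median log2 fold change of -0.42 against 0.08 over all genes. Ptgs2 was the one whose groups did not overlap, which held for 35% of all genes, and 1 of the 10 had an unadjusted p below 0.05 against 16.4% of all genes. In ticks 2x against naive skin limma called 0.0352% of genes and none of the 10, whose median was 0.07 against 0.01 over all genes, with 5 above 0 and 5 below. The groups did not overlap for Alox5ap and Alox15, and did not for 27.6% of all genes.

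In ticks 3x against naive skin limma called 0.00586% of genes and none of the 10, with a median of 0.19 against 0.02, none at an unadjusted p below 0.05 (6.95% of all genes), and Ptgs1 was the one without overlap of the groups (25.1% of all genes). In ticks 3x against ticks 2x limma called 0 of 17064 genes, with 878 (5.15%) at an unadjusted p below 0.05 and none of the 10 among them. The lowest adjusted p of the 10 was 0.894, and no group pair was without overlap (11.7% of all genes). The comparisons with naive skin share its 2 libraries.

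In repeat against first exposure, which cannot be told apart from title series, limma called 0.82% of genes and none of the 10. It called 0.246% of genes as higher. All but Ptgds of the 10 lay higher, with a median of 0.73 against -0.06 over all genes. Ptgs2, Alox5, Alox5ap and Alox15 had an unadjusted p below 0.05, 4 of 10, against 20.6% of all genes. The groups overlapped for each of the 10, and did not for 8.25% of all genes. First exposure replicate 3, the hair-poor library of its group, changed these calls. Without it limma called 5 of the 10 genes, but also 2260 of the 16943 genes tested in that fit. Ptgs2 (log2 fold change 3.22), Alox5ap (1.94), Ptges (1.26) and Alox5 (1.22) were called as higher and Ptgds (-4.31) as lower. Their limma adjusted p lay between 0.0321 and 0.05 (the latter rounded, for Alox5ap). The first exposure libraries that remain are both hair-rich.

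**Figure D5:**
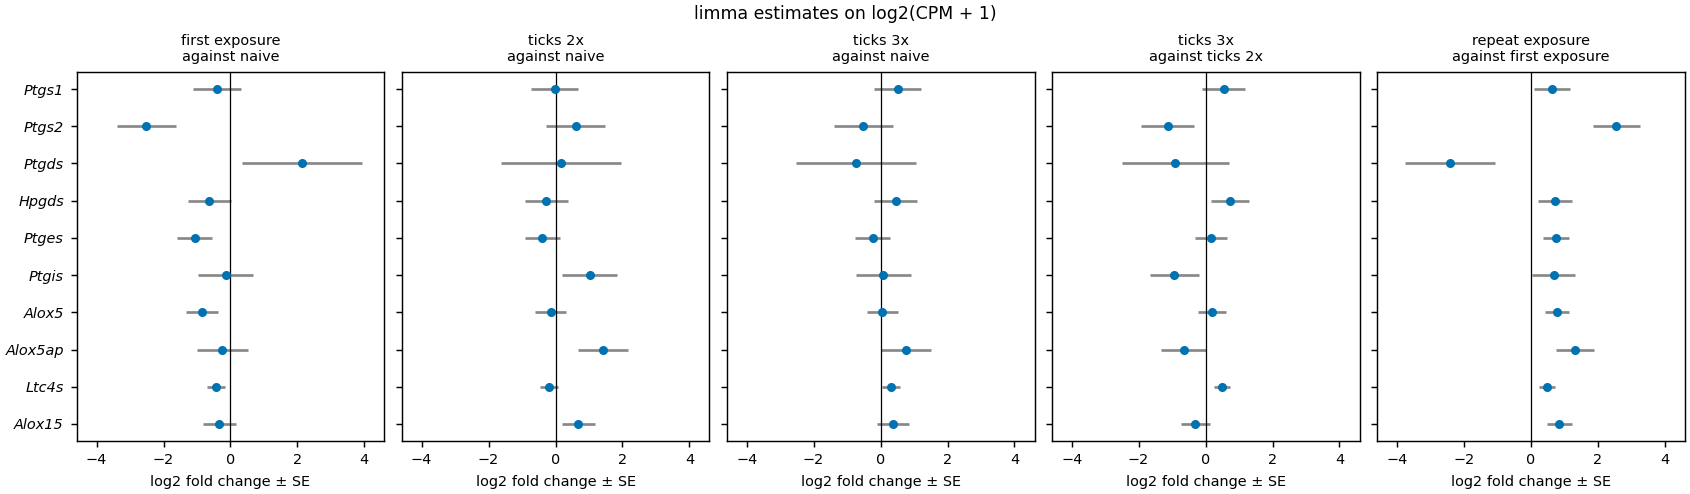
limma log2 fold changes with SE (bars) of the 10 genes in the 5 comparisons, on log2(CPM + 1). Ptgs2 lies farthest from 0 in first exposure against naive skin (-2.52) and in repeat against first exposure (2.56), and no estimate passed the adjusted threshold.

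The rest of the pathway was read from 5 lists of 54 genes, of which 52 were found. A single one of them was called in any comparison, in repeat against first exposure, where 0.82% of all genes were called. Ephx2, the soluble epoxide hydrolase that breaks down epoxides of arachidonic acid (chromosome 14, 66084372 to 66124522), was at 44.3, 27 and 35.5 CPM after first exposure and at 79, 76.8 and 83.2 CPM in ticks 2x and 97.5, 105 and 117 CPM in ticks 3x, without overlap. It was at 67.7 and 85.6 CPM in naive skin and at 48 CPM in saliva immune, so that the 4 libraries of the first exposure title series were the 4 lowest. The log2 fold change in repeat against first exposure was 1.37 (SE 0.18, limma adjusted p = 0.0249). The call was lost without first exposure replicate 2 (adjusted p = 0.133), ticks 2x replicate 3 (0.064), ticks 3x replicate 1 (0.0641) or ticks 3x replicate 2 (0.0615). Adipocyte genes (8 of 8 found) were also low in that series, at 2080 to 3240 CPM summed after first exposure, 4040 to 5480 CPM in ticks 2x, 4040 to 9190 CPM in ticks 3x, 6400 and 6970 CPM in naive skin and 3470 CPM in saliva immune, and their part was not tested.

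Among phospholipases, which release arachidonic acid, and a protein that activates them, 11 of 13 listed genes were tested and none was called in any comparison. The most abundant were Pla2g2f, a secreted enzyme of the upper epidermis, at 136 to 413 CPM, Pla2g4f at 37.7 to 133 CPM, and the activating protein gene Plaa at 54.8 to 85 CPM. Their median log2 fold change in repeat against first exposure was -0.14, with 3 above 0 and 8 below.

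Among the remaining synthesis enzymes (10 of 11 listed tested) and the other lipoxygenases (5 of 5 tested) none was called. Ptges3, which makes prostaglandin E2 and serves as a chaperone partner, was at 126 to 192 CPM, Cbr2, a carbonyl reductase, at 39.7 to 176 CPM and Akr1b3, an aldo-keto reductase, at 62.5 to 116 CPM. Lta4h, which leads to leukotriene B4, stayed between 46.1 and 66.8 CPM in all 12 libraries, a narrower range than any of the 10 enzymes. Alox12e, an epidermal lipoxygenase, was the most abundant of its kind at 49.6 to 230 CPM. Alox12b, needed for the skin barrier, was at 15.9 to 105 CPM, lowest in the hair-rich libraries of first exposure. Alox8 was at 83.5, 108 and 67.5 CPM in the 3 hair-rich libraries and at 2.19 to 28.7 CPM in the others.

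Among receptors 11 of 13 listed genes were tested and none was called. Ptger4, a prostaglandin E2 receptor, was the most abundant at 19.3 to 52.2 CPM, followed by Ptgfr, the prostaglandin F receptor, at 6.41 to 37.1 CPM and Ptger3, another prostaglandin E2 receptor, at 8.41 to 45.9 CPM. Ptger3 was highest in naive skin (31.6 and 45.9 CPM), above every bitten library. Groups did not overlap for 35% of all genes in first exposure, 27.6% in ticks 2x and 25.1% in ticks 3x, each against naive skin. The share of genes with naive skin above every bitten library was not computed. Cysltr1, the receptor for cysteinyl leukotrienes, was at 3.4 to 16.9 CPM, while Ptgdr2, a prostaglandin D2 receptor of type 2 immune cells, did not exceed 0.572 CPM. Of the breakdown and transport genes 12 of 12 were tested, 10 lay above 0 in repeat against first exposure, and Ephx2 alone was called. Abcc1, which exports leukotriene C4, was at 106 to 157 CPM.

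The genes whose levels ran most like each enzyme over the 12 libraries were taken from 11905 genes with a mean of at least 5 CPM, by Pearson's r on log2(CPM + 1). All 12 points share the differences in tissue described above. For Ptgs1 they were Phactr2, Krt78 and Rgmb (r = 0.99 for each), and for Hpgds Galnt7, Phactr2 and Hspa12a (r = 0.98 for each). Ptgs2 ran most like Has1, a hyaluronan synthase (r = 0.97), Cd14, the lipopolysaccharide coreceptor (r = 0.96), and Nfkbid, a regulator of NF-kB (r = 0.95). Ptgds ran with Slc24a4, Ttyh2 and Smad6 (r = 0.99 for each), and Ptges with Il34 (r = 0.98), Ssfa2 (r = 0.97) and H2-Q8 (r = 0.96).

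In the leukotriene branch Alox5ap ran most like Fcer1g, the signalling chain of Fc receptors, and Fxyd5 (r = 0.99 for both) and Snx20 (r = 0.98). Alox5 ran most like P4ha1 (r = 0.97) and Lama1 (r = 0.96). The third gene for Alox5 had a symbol that had been turned into a date. Ltc4s had lower values, with Vash1 (r = 0.91, rho = 0.87), Rasgrp4 (r = 0.88), a mast cell signalling protein, and Peg10 (r = 0.88). Ptgis ran with Kdelr3 and Sec22b (r = 0.97 for both) and Bcat1 (r = 0.96).

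Alox15 ran most like Cdc42ep2 (r = 0.94, rho = 0.85), Ccl11, the eotaxin that attracts eosinophils (r = 0.90, rho = 0.80), and Daglb (r = 0.89, rho = 0.80). Among the 10 genes themselves r lay between -0.94 (Ptgs1 and Ptgds) and 0.97 (Ptgs1 and Hpgds), and Ptgs1 with Ptgs2 gave 0.44. Exons of another gene on the opposite strand overlap those of Ptgs1, Ptgis, Alox5ap and Ltc4s in GENCODE M21. The sources used here do not say whether strand was used in counting, so reads of these genes and their partners may be mixed.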

How the data were processed

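RNA sequencing of 12 mouse skin libraries was used. The deposited table gives CPM per gene, with 0.0001 added to every value, left in place here. Per the submitters' processing notes STAR, Partek 8.0.19 and GRCm38.p6 were used; how reads were counted, and on which annotation, is not given in the sources used here. The step of low CPM values, taken as 1 read, gave whole reads within 0.02 for 73.7% to 79.4% of values, too few for a count test. Groups came from the labels. limma 3.58.1 (R 4.3.3) was run on log2(CPM + 1), letting the prior variance follow expression, on the 17064 genes that reached 1 CPM in 2 or more of 11 libraries, in a fit of 4 groups (7 residual degrees of freedom) or, with ticks 2x and 3x pooled, of 3 (8 residual degrees of freedom). Saliva immune was described only. The genes, lists, tests and alternatives were chosen with earlier results of these data known. Other pathway genes were named if called, or else as the most abundant of their list. A few more were chosen after their values were seen: Lta4h, Alox8, Cysltr1, Ptgdr2, Abcc1, Ccr3, Siglecf, Ear2, Il5ra, Ear6, Prg2 and Retnla. So were the Ptgs2 to Ptgs1 and Hpgds to Ptgs1 ratios. For each enzyme the 3 genes with the highest r were named, leaving out predicted genes. The fit was also run on simulated data with known changes. Genes were drawn independently there and not filtered at 1 CPM. The simulation therefore lacks the differences in tissue that genes share in these libraries. Lengths are GENCODE M21 exon unions; positions are RefSeq's. Alternatives were a pseudocount of 0.1, no filter, a 5 CPM filter, median-of-ratios scaling, only the groups compared, a hair follicle covariate and leaving out each library.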

Additional observations from a re-analysis of the deposited data

Results flagged for a closer look

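Within the 6 libraries of repeat exposure, ticks 2x replicate 2 stood far above the others for Ptgs2, at 127 CPM (gap over range 0.641), and ticks 2x replicate 1 for Ptgds, at 47.4 CPM (gap over range 0.906), both past Dixon's 95% critical value for 6 values. Chance puts about 1 group in 20 past it, and 10 genes were looked at.

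Ltc4s lay on opposite sides of the naive mean of 7.52 CPM in first exposure, where all 3 libraries were below it, and in ticks 3x, where all 3 were above. That difference was not tested, and it cannot be told apart from title series.

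The saliva immune library, which no test used, was above both naive libraries for 7 of the 10 genes: Ptgs1 (262 CPM), Hpgds (95.4 CPM), Ptgis (37.8 CPM), Alox5 (46.5 CPM), Alox5ap (49.3 CPM), Ltc4s (21.9 CPM) and Alox15 (64.6 CPM). Of 17174 genes, 44.6% lay above both naive libraries in it.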

How the results depend on the processing

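Under 6 alternatives other than leaving out a library, none of the 10 genes passed the threshold in any comparison, and 2 of 300 fold changes took another sign. Both came with the hair follicle covariate in first exposure against naive skin, 0.01 for Ptgs1 and 0.10 for Ptgis. Leaving out 1 of 11 libraries gave another sign in 24 of 550 values, for 16 of the 50 fold changes, with these ranges of log2 fold change. In first exposure against naive they were -1.17 to 0.18 for Ptgs1, -0.93 to 0.52 for Ptgis and -0.86 to 0.30 for Alox5ap. In ticks 2x against naive they were -0.45 to 0.40 for Ptgs1, -1.20 to 1.03 for Ptgds, -0.66 to 0.06 for Hpgds and -0.43 to 0.20 for Alox5. In ticks 3x against naive they were -1 to 0.15 for Ptgs2, -1.58 to 0.13 for Ptgds, -0.36 to 0.54 for Ptgis, -0.12 to 0.25 for Alox5 and -0.03 to 0.85 for Alox15. In ticks 3x against ticks 2x they were -1.74 to 0.47 for Ptgds, -0.20 to 0.55 for Ptges, -0.15 to 0.48 for Alox5 and -0.71 to 0.17 for Alox15. Of the 10 genes, 0 to 5 were called in repeat against first exposure when 1 library was left out, and 0 in the other comparisons. The 5 came without first exposure replicate 3, where 2260 of 16943 genes tested were called.

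Counts over all genes moved more. In first exposure against naive skin 2 genes were called, 9 with a pseudocount of 0.1, 9 with no filter and 8 at 5 CPM. In ticks 2x against naive skin 6 were called, 11 with no filter, 3 at 5 CPM and 0 with only the groups compared, and in ticks 3x against naive skin 1, 5 with no filter and 0 with only the groups compared. In repeat against first exposure 140 were called, 50 with a pseudocount of 0.1, 259 with no filter, 7 at 5 CPM, 89 with median-of-ratios scaling, 81 with only the groups compared and 48 with the hair follicle covariate. Leaving out 1 library gave 0 to 600 in first exposure, 0 to 5 in ticks 2x and 0 to 1 in ticks 3x, each against naive skin, 0 to 1 in ticks 3x against ticks 2x, and 0 to 2260 in repeat against first exposure, the 600 and the 2260 without first exposure replicate 3. The count in repeat exposure was 0 without first exposure replicate 2, ticks 2x replicate 3, ticks 3x replicate 1 or ticks 3x replicate 2. The cause was not tested. No paired analysis was possible because the labels' numbers tie no library of 1 group to a library of another. Values of the 10 genes rested on about 21 to 6719 reads, so counting error matters most for Ptgds at its lowest, and the few libraries per group limit every comparison.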
